A study of Mus musculus with 35 samples.

Results

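The mitochondrial ribosomal protein genes were taken as every row of the deposited gene table of the inhibitor experiment whose symbol begins with Mrpl or Mrps followed by a digit. This rule found 76 of 20261 genes, 47 for the large subunit (Mrpl) and 29 for the small subunit (Mrps), and used no measured value. RNA sequencing was done in NMuMG, an epithelial line from mouse mammary gland whose cells lose their junctions and take on mesenchymal traits under transforming growth factor β (TGF-β), a change called epithelial-mesenchymal transition. Cells were kept with JNKi, which blocks the stress-activated kinase JNK and whose compound the labels do not name, or with the vehicle DMSO, for 24, 48, 72 or 96 h or 7 days, with 2 samples in each of the 10 groups. Both arms are labelled genotype WT and strain E9, and by the treatment protocol both received 2 ng/ml of TGF-β, renewed with the medium every 2 days. Another 15 samples of a TGF-β time course were not analysed here, so the earliest samples used are those of 24 h. The labels do not say whether the 2 samples of a group came from separate cultures, and a p value therefore measures the spread between these samples only, which may be technical.

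Mitochondria make a small set of respiratory chain proteins on their own ribosomes. The ribosomal RNAs are encoded in mitochondrial DNA, whereas all of the ribosome's proteins are encoded in the nucleus, made in the cytosol and imported. Some have a counterpart in bacterial ribosomes and others are found only in mitochondria. The bacterial number of a member is kept in its symbol where it has a counterpart, so Mrpl up to 36 and Mrps up to 21 were read as having one (28 and 16 members) and higher numbers as mitochondria-specific (19 and 13). The numbering is only approximate: Mrpl47, Mrps24 and Mrps28, for example, are counterparts of bacterial L29, S3 and S1 but were counted as mitochondria-specific. Mrps30 and Mrps18a carry small-subunit symbols but sit in the large subunit in mammalian structures, and Mrps36 is now known as a component of the 2-oxoglutarate dehydrogenase complex. They were kept where their symbols put them.

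The libraries held 9.5 to 48.6 M reads, the lowest being JNKi 7 days replicate 1. All values below are the deposited normalized read counts, which are not divided by gene length. Of 8 mammary epithelial markers, Cdh1, Krt8, Krt18, Krt19 and Cldn4 were measured in every library, with Krt8 between 44774 and 209386. Epcam was listed at 0 in 15 of 20 libraries and at no more than 12.6 elsewhere, and Cldn3 and Cldn7 reached at most 2.4 and 4.3. The summed epithelial markers made up 1.13 to 1.26% of a library at 24 h, 0.462 to 0.553% at 96 h and 0.387 to 0.604% at 7 days. The sum of 8 mesenchymal markers was 0.437 to 0.507% at 24 h, 1.24 to 1.91% at 96 h and 0.575 to 1.08% at 7 days. Leukocyte markers (7 genes, of which Cd3e was at most 2) summed to 256 to 403 at 7 days and 105 to 150 at 24 h, with Cd68 at 93.7 to 296, and endothelial markers (5 genes, with Cdh5 at 59.1 to 372) to 302 to 417 at 7 days and 59.1 to 87.1 at 24 h. The 4 adipocyte markers summed to at most 27.7 in any library. The part of these markers in the results below was not tested.

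All 76 members passed the filter used for testing, a mean of 10 or more in some group. The lowest value of any member in any library was 234, for Mrps36. Mean values over the 20 libraries ran between 343 and 2616 counts per member. Levels of different genes can be set side by side only per length, here per kilobase of the median annotated coding transcript. On that scale Mrps21, the counterpart of bacterial S21, had the highest mean level over the 20 libraries (3213 per kilobase), followed by Mrpl33 (2306), Mrps18b (2295) and Mrpl20 (2029). The order differed between groups: in DMSO at 24 h Mrps21 (4773 per kilobase) was followed by Mrpl12 (2850), Mrpl20 (2697), Mrps6 (2646), Mrpl30 (2606) and Mrpl33 (2586), whose SDs overlap, and Mrps18b stood at 1971. The lowest means over the 20 libraries were those of Mrps16 (133), Mrps25 (145) and Mrpl47 (169).

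The members lie on 17 chromosomes in the GRCm38 annotation, and 25 of them share exon bases with another gene. The sources used here do not state how reads in such bases were counted, so the values of these members are less certain. Among genes described below this concerns Mrpl12, Mrpl18 (with Tcp1), Mrpl24 (with Rrnad1), Mrpl27 (with Eme1), Mrpl47 (with Actl6a and Ndufb5), Mrpl48 (with Rab6a), Mrpl51, Mrps6 (with Slc5a3), Mrps18b, Mrps26 and Mrps27.

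Promoters of the members were searched for short motifs in RefSeq windows of GRCm38.p6 that reach from 250 bases before to 50 bases after an annotated start. RefSeq windows were found for 67 of the 76 members, 73 windows in all. CCGGAAG, a core sequence bound by ETS factors such as GABP, a known regulator of nuclear genes for mitochondrial proteins, was present on either strand in 24 of 73 windows (32.9%), against 8.86% of all 32851 windows. AAGATGGC, a core bound by YY1, was present in 12 windows (16.4%), against 2.75% of all windows. The palindromic core sequence of NRF1, another regulator of such genes, was in 3 windows (4.11%), against 0.971%. The Sp1 sequence GGGCGG was in 38 windows (52.1%), against 35.7%, the E-box CACGTG in 7 (9.59%), against 7.15%, and the cyclic AMP response element TGACGTCA in 2 (2.74%), against 1.79%. TGANTCA, the sequence bound by the JNK target AP-1, was in 3 windows (4.11%), against 7.81% of all windows. Both strands were searched, none of these motifs contains another, and a match describes letters only, not a bound site.

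The 120 bases upstream of the annotated start are shown for 4 members that hold CCGGAAG there and that behaved differently, chosen after their values were seen. Capitals mark CCGGAAG (read as CTTCCGG where the match is on the other strand) and, in Mrps26, also the Sp1 sequence on the other strand. All 4 genes lie on the plus strand of GRCm38.p6, and the ends of the Mrps26 and Mrpl22 stretches lie inside the gene as GENCODE annotates it.
Mrps26, chr2:130563637-130563756: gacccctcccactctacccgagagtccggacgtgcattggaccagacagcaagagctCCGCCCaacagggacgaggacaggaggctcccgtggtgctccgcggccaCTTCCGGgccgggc
Mrps27, chr13:99344666-99344785: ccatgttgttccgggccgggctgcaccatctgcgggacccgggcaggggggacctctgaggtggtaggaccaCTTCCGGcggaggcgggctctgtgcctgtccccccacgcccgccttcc
Mrpl22, chr11:58171544-58171663: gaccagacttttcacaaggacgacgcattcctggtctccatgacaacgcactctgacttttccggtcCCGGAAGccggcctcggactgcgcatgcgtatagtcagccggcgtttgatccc
Mrpl52, chr14:54426789-54426908: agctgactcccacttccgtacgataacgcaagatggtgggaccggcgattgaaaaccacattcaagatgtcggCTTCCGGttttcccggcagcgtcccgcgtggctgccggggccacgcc
Between 24 and 96 h in DMSO the log2 change was -0.73 for Mrps27 and -0.70 for Mrpl22, both past the test, and -0.13 for Mrpl52 and 0.25 for Mrps26, which did not pass it. Over all members with a window, those with CCGGAAG (24 genes) had a median log2 change of -0.73 at 96 h against 24 h in DMSO, and those without it (43 genes) -0.68.

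The first question was how the members changed with time in each arm. In both arms most members fell between 24 and 96 h. Between 96 h and 7 days 27 of 76 rose in JNKi, where 23.2% of all genes tested were higher. In DMSO 29 of 76 rose, where 21% of all genes were higher. Fewer members rose in either arm once a trend on transcript length was removed, as given below. At 96 h against 24 h, 64 of 76 members were lower and 2 higher in JNKi cultures, with a median log2 change of -0.52, that is 0.70 times the 24 h level. In DMSO cultures at the same times 63 were lower and 2 higher, with a median of -0.68, or 0.62 times the 24 h level. These calls are from limma with Benjamini-Hochberg adjustment over 13896 genes at a threshold of 0.05, and 63 members were lower at 96 h in both arms. Among all genes tested, 29% were lower and 30.8% higher in JNKi at 96 h (59.8% in all), and 30.5% lower and 32.7% higher in DMSO (63.3% in all), with medians of 0.07 in each arm. In such bulk samples, fewer cells of a type and less RNA per cell cannot be told apart.

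In JNKi cultures the large-subunit genes summed to 59679 and 68618 normalized counts in the 24 h libraries, to 54148 and 58552 after 48 h, to 51688 and 50705 after 72 h, to 43857 and 46937 after 96 h, and to 51160 and 49589 after 7 days. The DMSO sums were 62260 and 72308 in the 24 h libraries, 53333 and 54284 after 48 h, 49322 and 46096 after 72 h, 43041 and 43616 after 96 h, and 48747 and 52009 after 7 days. All later libraries were below all libraries of 24 h in the same arm, and the 96 h libraries were the lowest of each arm. The small-subunit sums were also lowest in the 96 h libraries, with 23194 and 25210 at 96 h against 30934 and 35059 at 24 h in JNKi, and 23418 and 22772 at 96 h against 32404 and 36658 at 24 h in DMSO. JNKi 48 h replicate 2, at 31019, was the single later library whose small-subunit sum lay above a 24 h library of its arm. In both arms replicate 2 of 24 h was above replicate 1.

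**Figure D1:**
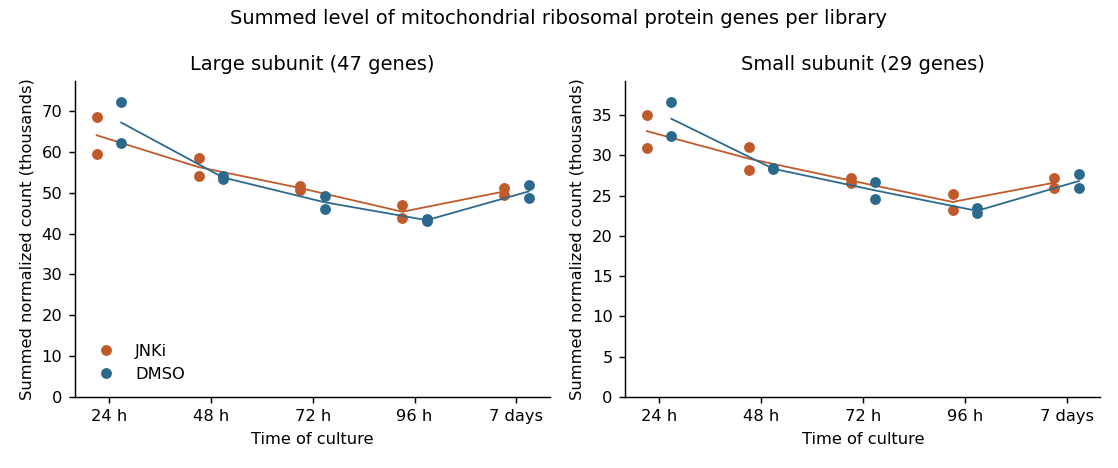
Summed normalized counts of the large-subunit genes (left) and small-subunit genes (right) in each of the 20 libraries, by time of culture; points are libraries, JNKi in orange and DMSO in blue, and lines join the means of 2 libraries. The large-subunit sum is lowest at 96 h, between 43041 and 46937, and stands between 48747 and 52009 at 7 days.

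The change was already present at 48 h in DMSO, where 39 members were lower and 0 higher than at 24 h, with a median log2 change of -0.32 (all genes 13.7% lower and 14.7% higher, 28.4% in all). In JNKi at 48 h 9 members were lower and 0 higher, with a median of -0.17 (all genes 11.2% lower and 10.9% higher, 22.1% in all). At 72 h 42 members were lower and 0 higher in JNKi, with a median of -0.29 (all genes 19.1% lower and 20.6% higher, 39.7% in all). In DMSO at 72 h 67 members were lower and 0 higher, with a median of -0.51 (all genes 22.8% lower and 24% higher, 46.8% in all). At 7 days 50 members were below their 24 h level and 0 above it in JNKi, with a median of -0.34 (all genes 26.3% lower and 31.7% higher, 58% in all). In DMSO at 7 days 58 were lower and 2 higher, with a median of -0.41 (all genes 28% lower and 32% higher, 59.9% in all). The unequal counts of the arms at 48 and 72 h do not by themselves show that the arms differed, and the difference in change at these times was not tested.

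Several of these counts, taken over both directions, rested on 1 library. The shares of all genes called when a library was left out are not given, here or below. The drops are therefore not shown to be particular to the members. Without DMSO 24 h replicate 2, 3 members were called at 48 h, 43 at 72 h and 38 at 7 days in DMSO. The count at 48 h was also 14 without DMSO 48 h replicate 1 and 18 without its replicate 2. In JNKi, leaving out replicate 2 of 24 h left 0 members at 48 h, 15 at 72 h and 25 at 7 days. The JNKi count at 48 h was 0 without JNKi 48 h replicate 1 and 18 without JNKi 24 h replicate 1, and that at 72 h was 27 without JNKi 72 h replicate 2. The count at 96 h was 63 to 66 in DMSO and 51 to 66 in JNKi over all such omissions.

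**Figure D2:**
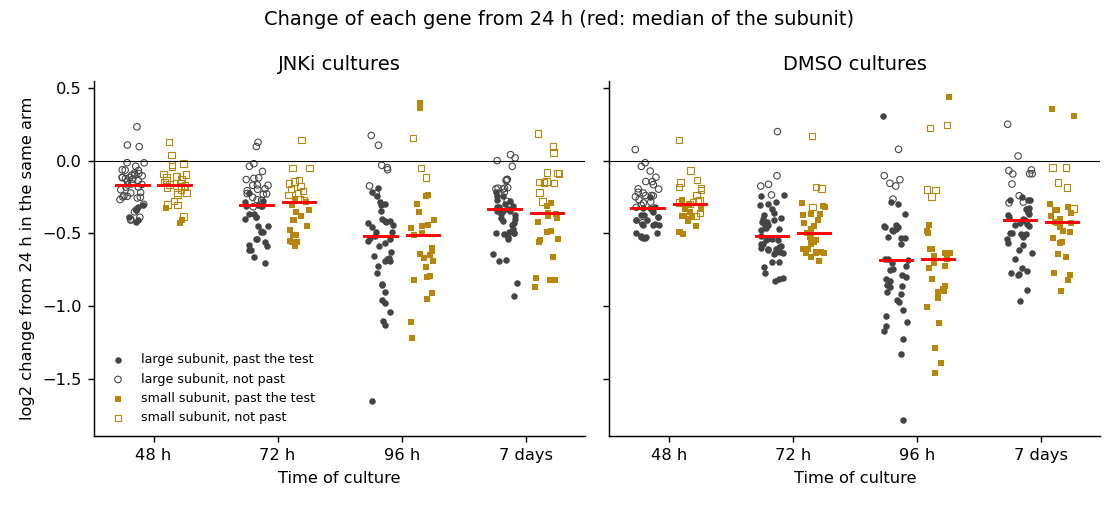
The log2 change of each member from 24 h in the same arm, at 48, 72 and 96 h and 7 days, for JNKi (left) and DMSO cultures (right); circles are large-subunit and squares small-subunit genes, filled where the limma test was passed, and red lines are medians. The medians of the subunits lie close together at every time and are lowest at 96 h, and the lowest point in both arms is Mrpl14.

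The subunits had similar medians. At 96 h the median log2 change was -0.52 for the large and -0.51 for the small subunit in JNKi, and -0.69 and -0.67 in DMSO. Of the large-subunit genes 40 of 47 were lower at 96 h in each arm, and of the small-subunit genes 24 of 29 in JNKi and 23 of 29 in DMSO. Members with a bacterial counterpart and mitochondria-specific ones had medians at 96 h of -0.50 and -0.53 in the large subunit and -0.48 and -0.60 in the small subunit in JNKi, and of -0.69 and -0.69, and -0.67 and -0.67, in DMSO. The members varied less among themselves than genes in general. The SD of their log2 changes at 96 h was 0.36 in JNKi and 0.41 in DMSO, against 1.03 and 1.07 over all genes tested. All genes tested include some with group means near 10, whereas no member was under 234 in any library. The part of expression level in this difference was not tested.

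The order of times was shared by most members. The group mean was lower at each step of 24, 48, 72 and 96 h for 54 members in JNKi and 59 in DMSO, a pattern that 19.1 and 19.7% of all genes tested showed. The lowest mean of a member's 5 times fell at 96 h for 52 members in JNKi and 57 in DMSO. The highest fell at 24 h for 66 members in JNKi and 70 in DMSO. How often genes in general had their lowest or highest mean at these times was not counted. As a description over the 10 group means, 48 members had a Pearson correlation over 0.9 with the average of the other members, the closest being Mrpl51 (0.99), Mrpl20 (0.99) and Mrpl22 (0.99). For 5 members it was below 0, namely Mrps18b (-0.91), Mrpl24 (-0.71), Mrps26 (-0.40), Mrps31 (-0.32) and Mrpl1 (-0.13). How many other genes reach 0.9 with that average was not counted, so this likeness is not shown to be particular to the members. These groups share an experiment and its library preparation, so no test is given.

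Mrpl14, the counterpart of bacterial L14 at the interface of the subunits, had the largest fall at 96 h in both arms. Its values were 335 and 319 at 96 h against 927 and 1136 at 24 h in JNKi, a log2 change of -1.65 (SE 0.16, limma adjusted p = 3.74e-07). In DMSO they were 336 and 297 at 96 h against 1000.7 and 1180.7 at 24 h, a log2 change of -1.78 (SE 0.16, limma adjusted p = 1.11e-07). At 7 days they stood at 610 and 666 in JNKi and at 475 and 727 in DMSO, above both 96 h libraries and below both 24 h libraries of their arm.

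Mrps21 and Mrps6, counterparts of bacterial S21 and S6, followed the same course. Mrps21 had 811 and 895 at 96 h against 1835 and 2143 at 24 h in JNKi, and 773 and 778 at 96 h against 2042 and 2220 at 24 h in DMSO, log2 changes of -1.22 and -1.46 (SE 0.12 each). Mrps6 had 971 and 1016 at 96 h against 2065 and 2232 at 24 h in JNKi, and 915 and 791 at 96 h against 2104 and 2373 at 24 h in DMSO, log2 changes of -1.11 and -1.39 (SE 0.11 each). The libraries of 96 h and 24 h did not overlap for either gene. Mrpl11, the counterpart of L11 in the stalk base, averaged 707 ± 27.6 at 96 h and 1555 ± 241 at 24 h in JNKi (SD, n = 2 each), a log2 change of -1.13 (SE 0.14).

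Mrpl18, the counterpart of L18, had the largest fall of any member at 7 days in DMSO. Its DMSO values were 714 and 929 at 7 days against 1450 and 1746 at 24 h, a log2 change of -0.97 (SE 0.12, limma adjusted p = 5.35e-06). In JNKi they were 1073 and 990 at 7 days against 1412 and 1495 at 24 h, a log2 change of -0.50 (SE 0.12, adjusted p = 0.00235). The JNKi libraries of 7 days were above both DMSO libraries of that time. The difference between arms at 7 days did not pass the test (0.34, SE 0.12, limma adjusted p = 0.0842).

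Mrpl12, the counterpart of the bacterial stalk protein L7/L12 and present in several copies per ribosome, fell at 7 days in both arms. It averaged 1844 ± 66.7 at 7 days and 3559 ± 749 at 24 h in JNKi (SD, n = 2 each), a log2 change of -0.93 (SE 0.16), and 2153 ± 193 at 7 days and 3751 ± 952 at 24 h in DMSO, a log2 change of -0.78 (SE 0.16). The spread at 24 h was wide, with 3029 and 4088 in JNKi and 3078 and 4424 in DMSO. Its call at 72 h in JNKi was lost without JNKi 24 h replicate 2, and that at 48 h in DMSO without DMSO 24 h replicate 2 or either DMSO 48 h library.

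Mrpl42, a mitochondria-specific protein, had 688 and 694 at 7 days against 1136 and 1352 at 24 h in JNKi, and 754 and 847 at 7 days against 1278 and 1491 at 24 h in DMSO. The log2 changes were -0.84 and -0.79 (SE 0.13 each). Mrps36 averaged 343 ± 70.6 at 7 days and 634 ± 63.7 at 24 h in DMSO (SD, n = 2 each), a log2 change of -0.90 (SE 0.15). Mrpl51 and Mrpl40, both mitochondria-specific, were among the members with the largest falls at 72 h in DMSO, by -0.83 (SE 0.10) and -0.80 (SE 0.11).

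Mrps27, a pentatricopeptide repeat protein of the small subunit, was low at 96 h and at 7 days, with no call between these times. Its means were 915 at 24 h, 564 at 96 h and 520 at 7 days in JNKi, and 1002, 594 and 560 in DMSO. The values at 7 days, 530 and 510 in JNKi and 555 and 565 in DMSO, were below all libraries of 24 h, of which the lowest had 816. The log2 change at 7 days was -0.81 in JNKi and -0.82 in DMSO (SE 0.13 each). Mrps16, the counterpart of S16, averaged 478 ± 38.2 at 24 h, 254 ± 0.141 at 96 h and 261 ± 20.5 at 7 days in JNKi (SD, n = 2 each), a log2 change of -0.87 (SE 0.13) at 7 days. It was also the member with the largest fall at 48 h in JNKi (-0.43), before Mrpl27 (-0.42) and Mrpl48 (-0.41), and these 3 calls were lost without JNKi 24 h replicate 2 or JNKi 48 h replicate 1.

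A few members went against the rest. Mrps18b, 1 of 3 mammalian relatives of bacterial S18, was the only member above its 24 h level by the test at 96 h in both arms. It had 2364 and 2625 at 96 h against 1834 and 1959 at 24 h in JNKi, and 2544 and 2474 at 96 h against 1772 and 1938 at 24 h in DMSO. The log2 changes were 0.39 (SE 0.09, limma adjusted p = 0.00178) and 0.44 (SE 0.09, adjusted p = 0.000688), with no overlap of libraries. At 7 days it passed in DMSO (0.36, SE 0.09) but not without DMSO 7 days replicate 1 (0.23, limma adjusted p = 0.0739).

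Mrpl24, the counterpart of L24, was higher at 96 h than at 24 h in DMSO, with 616 and 579 against 472 and 493, a log2 change of 0.31 (SE 0.11, limma adjusted p = 0.0196). Leaving out DMSO 24 h replicate 1 or DMSO 96 h replicate 1 ended that call, with limma adjusted p values of 0.0888 and 0.11. Mrps31, a small-subunit protein specific to mitochondria, was higher at 96 h in JNKi, with 679 and 837 against 562 and 614 at 24 h, a log2 change of 0.36 (SE 0.13), lost without JNKi 24 h replicate 1 or JNKi 96 h replicate 2. Mrps26, another mitochondria-specific protein, had 1370 and 1390 at 7 days against 1032 and 1204 at 24 h in DMSO, a log2 change of 0.31 (SE 0.11, limma adjusted p = 0.022). This was lost without either DMSO 7 days library or DMSO 24 h replicate 1 and with the length trend described below removed (0.20, adjusted p = 0.168).

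Mrpl38, the large-subunit gene with the highest mean count, had 2294 and 2420 at 7 days against 2714 and 2901 at 24 h in DMSO, a log2 change of -0.25 (SE 0.07), lost without DMSO 24 h replicate 2 or DMSO 7 days replicate 1. Mrpl55 and Mrpl23, the large-subunit genes with the lowest mean counts, had log2 changes at 7 days in DMSO of -0.41 (SE 0.13, lost without DMSO 24 h replicate 2 or DMSO 7 days replicate 2, and with the length trend removed) and -0.29 (SE 0.14, not past the test).

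**Figure D3:**
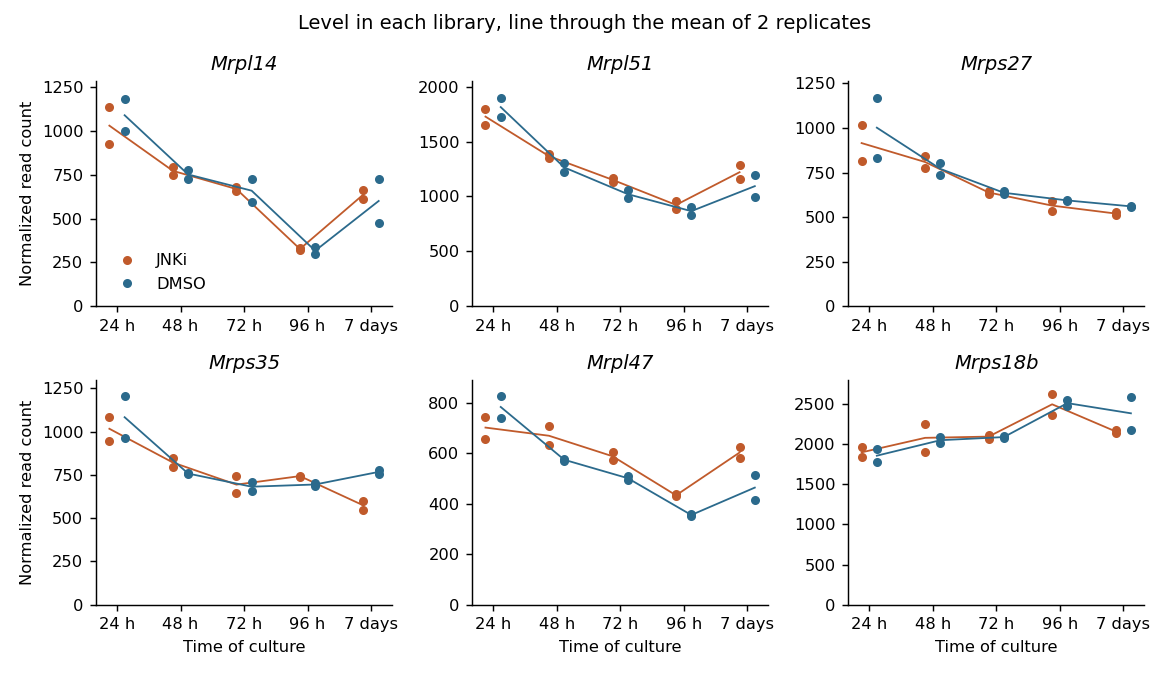
Normalized read count of 6 members in each library by time of culture, JNKi in orange and DMSO in blue, with lines through the means of 2 libraries and axes starting at 0. Mrpl14 and Mrpl51 dip at 96 h, Mrps27 is lowest at 7 days and Mrps18b is highest at 96 h. Mrpl47 and Mrps35 are the members past the limma test between arms at 7 days, and both calls were lost without some single libraries.

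Between 96 h and 7 days many members were higher again. In JNKi 27 of 76 were higher and 3 lower at 7 days than at 96 h, with a median log2 change of 0.15 (all genes 23.2% higher and 16.6% lower, 39.7% in all, median 0.07). In DMSO 29 were higher and 0 lower, with a median of 0.24 (all genes 21% higher and 15.5% lower, 36.5% in all, median 0.06). The largest was that of Mrpl14, 0.96 in JNKi and 0.89 in DMSO (SE 0.16 each). Mrpl54, a mitochondria-specific protein, had 582 and 568 at 7 days against 315 and 314 at 96 h in DMSO, a log2 change of 0.87 (SE 0.16), and Mrps21 rose by 0.68 in each arm (SE 0.12 each). The 3 that were lower in JNKi were Mrps31 (-0.50, SE 0.13), Mrps35 (-0.37, SE 0.11) and Mrpl1 (-0.37, SE 0.10), whose calls were all lost without JNKi 96 h replicate 2. Those of Mrps35 and Mrpl1 were also lost without JNKi 7 days replicate 2, and that of Mrps35 without JNKi 96 h replicate 1 and with the length trend removed. The DMSO count was 14 without DMSO 7 days replicate 2, 18 without DMSO 96 h replicate 1 and 19 without DMSO 96 h replicate 2. The JNKi count of 30 was 12 without JNKi 96 h replicate 1 and 16 without either JNKi 7 days library.

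Transcript length moved with time across the whole table. Members have short transcripts, with a median of 1221 bases against 2648 over all genes tested. Among other genes, those of up to 1000 bases had a median log2 change at 96 h of -0.25 in JNKi and -0.35 in DMSO, those of intermediate length -0.12 in JNKi and -0.16 in DMSO, and those of over 2000 bases 0.16 in JNKi and 0.19 in DMSO. Members were below other genes of their length class in every class at 96 h, with medians of -0.59 (30 members up to 1000 bases), -0.53 (28 members between these bounds) and -0.41 (18 members over 2000) in JNKi, and -0.75, -0.68 and -0.51 in DMSO. Each library's trend on length was also removed, an alternative chosen after seeing the data. At 96 h 50 members were then lower and 5 higher in JNKi (median -0.33), and 57 lower and 5 higher in DMSO (median -0.41). Without that removal 29% of all genes tested were lower and 30.8% higher in JNKi, and 30.5% lower and 32.7% higher in DMSO. The shares of all genes with the trend removed are not given here.

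The later change differed by length class. From 96 h to 7 days, members of up to 1000 bases had a median of 0.28 in JNKi and 0.29 in DMSO, and other genes of that length 0.21 and 0.27. Members of intermediate length had 0.13 in JNKi and 0.24 in DMSO, and other genes 0.16 and 0.18. Members of over 2000 bases had 0.02 in JNKi and 0.15 in DMSO, and other genes 0.00 and -0.03. With the length trend removed 11 members were higher and 9 lower at 7 days than at 96 h in JNKi (median 0.01), and 16 higher and 7 lower in DMSO (median 0.10). Without that removal 23.2% of all genes tested were higher and 16.6% lower in JNKi, and 21% higher and 15.5% lower in DMSO. The shares of all genes with the trend removed are not given here. The part of length in these changes was not otherwise tested.

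**Figure D4:**
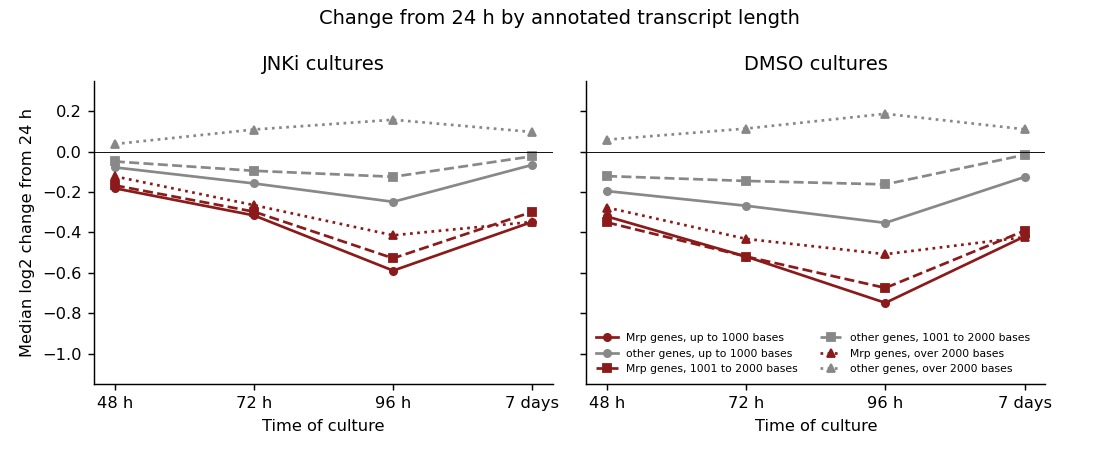
Median log2 change from 24 h by annotated transcript length for the mitochondrial ribosomal protein genes (dark red) and all other genes tested (grey), in JNKi (left) and DMSO cultures (right); solid, dashed and dotted lines are genes of up to 1000 bases, of a length between the bounds, and of over 2000 bases. The red lines lie below every grey line in both arms, and short genes of both kinds are lowest at 96 h.

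Proliferation markers moved in the same order of times. The sum of 8 such genes was 14722 to 16682 at 96 h against 47870 to 68077 at 24 h, and 25853 to 31407 at 7 days, over the libraries of both arms. All 8 were lower at 96 h than at 24 h in each arm, and 7 of 8 were higher at 7 days than at 96 h. Of all genes tested, 29% passed the test as lower at 96 h in JNKi and 30.5% in DMSO. At 7 days against 96 h, 23.2% passed as higher in JNKi and 21% in DMSO. The part of the proliferation markers in the members' course was not tested.

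The second question was whether JNKi cultures differed from DMSO cultures at the same time. No member passed the limma test at 24, 48, 72 or 96 h, and at these times 0, 2, 7 and 3 members had an unadjusted p under 0.05. Of all genes tested, 0% passed at 24 and 48 h, 0.0432% were higher and 0.0288% lower at 72 h (0.072% in all) and 0.0072% higher and 0% lower at 96 h. edgeR's quasi-likelihood test on the recovered reads also called 0 members at each of the 4 times. With the replicate number as a block within each time, limma called 1 member at 72 h and 0 at 24, 48 and 96 h. The shares of all genes with that block are not given here. The median log2 difference, JNKi minus DMSO, was -0.07 in the 24 h groups, 0.06 after 48 h, 0.08 after 72 h and 0.06 after 96 h. Both JNKi libraries of 24 h lay above both DMSO libraries for 1 member and below them for 7 (14.7% and 12.3% of all genes), and those of 48 h above for 25 and below for 2 (13.8% and 15.3%). At 72 h both JNKi libraries lay above both DMSO libraries for 32 members and below them for 2, when 18.3% and 18.1% of all genes tested did so. At 96 h they lay above for 33 members and below for 1, when 19.7% and 19.7% of all genes did. At 7 days they lay above for 19 and below for 24, when 32.0% and 26.2% of all genes did.

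At 7 days 1 member was higher and 1 lower in JNKi (all genes 4.84% higher and 5.33% lower, 10.2% in all), and the median difference was -0.01. Mrpl47 had 624 and 581 in JNKi against 416 and 512 in DMSO, a log2 difference of 0.38 (SE 0.11, limma adjusted p = 0.0389). Mrps35, a small-subunit protein specific to mitochondria, had 602 and 546 in JNKi against 779 and 756 in DMSO, a log2 difference of -0.42 (SE 0.11, limma adjusted p = 0.0256). The arms did not overlap for either gene. The call of Mrps35 was lost without any 1 of the 4 libraries of 7 days, with limma adjusted p values up to 0.17. That of Mrpl47 was lost with edgeR (adjusted p = 0.0541) and in limma without DMSO 7 days replicate 1 or either library of DMSO 48 h, JNKi 96 h or JNKi 7 days (adjusted p up to 0.336).

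Averaged over the 5 times, 3 members were higher in JNKi and 0 lower (all genes 2.45% higher and 2.32% lower, 4.77% in all). They were Mrps14, the counterpart of S14, with a log2 difference of 0.22 (SE 0.06, limma adjusted p = 0.0484), Mrpl47 with 0.19 (SE 0.05, adjusted p = 0.0378) and Mrpl45, which lies near the exit tunnel and the inner membrane, with 0.13 (SE 0.03, adjusted p = 0.0462). Each of these calls was lost when most of the single libraries were left out, and the count was between 0 and 3 when libraries were left out in turn. At 96 h Mrpl47 had 438 and 429 counts in JNKi against 352 and 359 in DMSO. Mrps14 had 879 and 753 at 7 days in JNKi against 688 and 724 in DMSO.

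The change from 24 h to 7 days was compared between the arms directly. No member passed this test (5 had an unadjusted p under 0.05), while 0.799% of all genes tested were higher and 1.3% lower (2.1% in all). The largest difference was that of Mrpl47, 0.54 (limma adjusted p = 0.0887), whose change from 24 h was -0.22 in JNKi and -0.76 in DMSO (SE 0.11 each). Differences between the arms in the change to 48, 72 or 96 h were not tested.

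**Figure D5:**
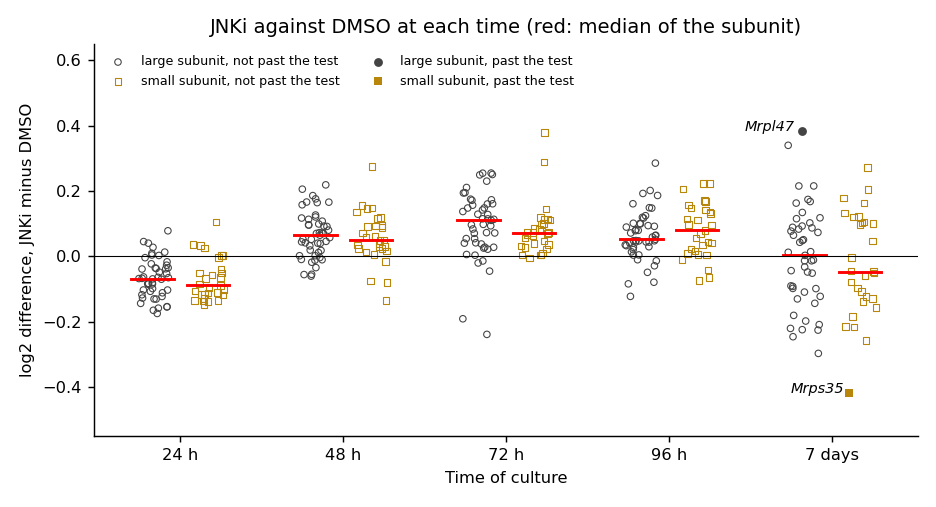
The log2 difference of each member, JNKi minus DMSO, at each time; circles are large-subunit and squares small-subunit genes, filled where the limma test was passed, and red lines are medians. The medians lie between -0.09 and 0.11 at every time, and Mrpl47 and Mrps35 at 7 days are the 2 filled points.

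Genes that work with these proteins are given beside the shares of all genes tested at 96 h, 29% lower and 30.8% higher in JNKi and 30.5% lower and 32.7% higher in DMSO. A further list of 8 genes holds mitoribosomal proteins named otherwise and Oxa1l, an inner-membrane insertase that is not itself a ribosomal protein. Of these, 4 were lower and 1 higher at 96 h against 24 h in JNKi, and 5 lower and 1 higher in DMSO. Among them Ict1, a peptide release factor built into the large subunit, had 608 and 773 at 7 days against 940 and 1127 at 24 h in DMSO, a log2 change of -0.59 (SE 0.13), and Gadd45gip1 fell by 0.49 (SE 0.13). Of 12 translation factors 4 (33.3%) were lower and 3 (25%) higher at 96 h in JNKi, near the shares of all genes, and 6 (50%) were lower and 2 (16.7%) higher in DMSO. Tufm, the elongation factor that brings aminoacyl-tRNA to the ribosome, had 1825 and 2447 at 7 days against 4139 and 4479 at 24 h in DMSO, a log2 change of -1.03 (SE 0.11), and Gfm1, the translocation factor, fell by 0.75 (SE 0.08).

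Ribosome assembly factors and aminoacyl-tRNA synthetases were higher at 96 h about as often as genes in general. Of 23 assembly factors 3 (13%) were lower and 8 (34.8%) higher at 96 h in JNKi (median 0.14), and 3 (13%) lower and 7 (30.4%) higher in DMSO (median 0.09). Mrm1, which methylates the large ribosomal RNA, averaged 473 ± 40.0 at 7 days and 257 ± 25.6 at 24 h in DMSO (SD, n = 2 each), a log2 change of 0.87 (SE 0.18). Of 18 synthetases 2 (11.1%) were lower and 6 (33.3%) higher at 96 h in JNKi (median 0.15), and 3 (16.7%) lower and 6 (33.3%) higher in DMSO (median 0.10). Lars2, the leucyl-tRNA synthetase, stood at 419429 in JNKi 7 days replicate 1 and at 43534 in replicate 2, and between 30774 and 105755 in the other libraries. Of 10 genes for mitochondrial transcription and RNA stability 1 was lower and 3 higher at 96 h in JNKi, and 2 lower and 3 higher in DMSO, and Hsd17b10, a subunit of mitochondrial RNase P, fell by 0.86 (SE 0.12) at 7 days in DMSO.

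The nuclear genes of the respiratory chain and ATP synthase, whose complexes hold the products of mitochondrial ribosomes, fell in most cases. At 96 h 71 of 78 were lower and 1 higher in JNKi (median -0.68), and 74 lower and 1 higher in DMSO (median -0.78). At 7 days against 96 h 42 were higher and 1 lower in JNKi, and 59 higher and 1 lower in DMSO. Of all genes tested, 23.2% were higher and 16.6% lower between these times in JNKi, and 21% higher and 15.5% lower in DMSO. Cytosolic ribosomal protein genes fell too, with 69 of 80 lower and 1 higher at 96 h in JNKi (median -0.60), and 72 lower and 1 higher in DMSO (median -0.78). At 7 days against 96 h 5 of these 80 were higher and 3 lower in JNKi, beside 24 higher and 0 lower in DMSO, with the same shares of all genes. Whether the change from 96 h to 7 days differed between the arms was not tested. For the change from 24 h to 7 days, 0 of the 80 passed the test between arms, with 3 at an unadjusted p under 0.05. The lists, like the members, were chosen with earlier results of these data known.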

How the data were processed

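Gene values of 20 RNA sequencing libraries were analysed. The signal deposited by the authors is a read count per gene after normalization across libraries, to 1 decimal. The submitters' processing notes name TopHat, HTSeq, DESeq and mm9 without versions. Strand setting, annotation and filters: not given in the sources used here. Each library's low values stepped by a fixed amount. Dividing by that amount recovered whole reads (within 0.1) for 99.5 to 100% of the values above 0 in each library, after rounding. The time course table was not used, because its values were split at the decimal point, and 95.7% of the 11405 rows that reach 100 alternate between large and small cells.

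Deposited values were taken as log2(value + 1). In R 4.3.3, limma 3.58.1 fitted 1 mean per group over all 20 libraries, allowing the variance to follow the mean, for 13896 genes with a group mean of at least 10 in 1 group or more. All tests are two-sided, with Benjamini-Hochberg adjustment over these genes and a threshold of 0.05. On the log2(value + 1) scale the change of low genes is understated. SE denotes the standard error from the model. edgeR 4.0.16 (quasi-likelihood) on the recovered reads was an alternative. The same limma fit was run on simulated data, with libraries drawn independently and the same dispersion for every gene. That simulation held no shared replicate deviation and no length trend, unlike the data, and its outcome is not given here. Transcript lengths are medians over annotated coding transcripts (GENCODE M21, GRCm38). They were found for 98.7% of genes.

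Members, gene lists and the rule for named genes were chosen with earlier results of these data known. In full were described, for each subunit, the 4 lowest and 2 highest changes past the test at 7 days in DMSO, the 2 highest and 2 lowest means, and up to 3 members each way past the test in every other contrast. Mrpl20, Mrpl22 and Mrpl52 were named after their values were seen. Precision differs between libraries with their depth. A gene of the other lists is not reported here.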

Additional observations from a re-analysis of the deposited data

How the results depend on the processing

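Counts of called members, both directions together, under pseudocounts of 0.5 and 8, no filter, a group mean of at least 50, TMM rescaling, edgeR, a replicate block and removal of the length trend stayed within 1.5 times of the total given for all comparisons with 24 h or 96 h in the same arm, and the direction of no named member was reversed. The split by direction for 7 days against 96 h did change with the length trend removed, to 11 higher and 9 lower in JNKi, against 27 and 3 without that step, and to 16 higher and 7 lower in DMSO, against 29 and 0. Of all genes tested, without that step, 23.2% were higher and 16.6% lower in JNKi, and 21% higher and 15.5% lower in DMSO. The shares of all genes with that step are not given here, so the counts with it have no matching background. For the mean of JNKi against DMSO, the 3 called members became 1 with no filter, with TMM rescaling and with edgeR. At 7 days the 2 became 1 with edgeR. Same-numbered samples of the arms deviated together at 24 to 96 h (correlations of 0.726, 0.591, 0.723 and 0.527 over 9605 genes) but not at 7 days (0.0724), so the numbers were not taken as pairing. With the replicate number as a block within each time, JNKi against DMSO gave 1 member at 72 h, 7 at 7 days and 6 for the mean, and 3 for the change from 24 h to 7 days. One block over all times left these at 0, 2, 3 and 0. The shares of all genes called with a block are not given here, so these counts are not shown to be particular to the members.

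Leaving out each library in turn gave 3 to 45 called members at 48 h, 43 to 67 at 72 h, 38 to 62 at 7 days and 14 to 31 for 7 days against 96 h in DMSO. In JNKi the ranges were 0 to 18, 15 to 49, 25 to 53 and 12 to 31. JNKi against DMSO gave 0 to 4 at 7 days, 0 to 3 for the mean and 0 to 3 for the change from 24 h to 7 days. Where a group keeps a single library, that library is assumed to vary like the others. The shares of all genes called with a library left out are not given here. Of 1489 recalculated values of named members, 1385 kept their call and 104 lost it. The lowest value of any member in a library was 234, so depth set no limit on detecting a member.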
